A study of Mus musculus with 6 samples.

Results

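The temporal conjunctival epithelium of mouse embryos was compared between the array labelled Sox9 knockout and the wild-type array of the same region. These were the 2 arrays whose labels name the temporal region, of 6 arrays in all. The other 4 arrays held nasal and dorsal conjunctiva of both genotypes and serve below as background. The embryos labelled knockout were Sox9 fx/fx and carried Le-Cre (Sox9-/-), and the others were labelled wild type with no further allele given. All came from a mixed FVB and 129 background at E14.5 (embryonic day). Epithelium was cut by laser from sections 10 micrometres thick, and 15 ng of total RNA was amplified for each sample. The submitters' design text has the cDNA of 3 embryos per genotype pooled within each region. Their extraction protocol instead mentions lens from a single embryo, so whether an array stands for 1 embryo or for 3 cannot be told apart here.

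Le-Cre is a transgene under a Pax6 enhancer that recombines floxed alleles in the ocular surface ectoderm and its derivatives, so cells of other origin in the same cut keep Sox9. Sox9 is a transcription factor of the SoxE group. It directs cartilage formation, where it activates the genes of collagen types II, IX and XI, and it is required in the buds of several epithelial glands. The lacrimal gland of the mouse grows as a bud from the temporal conjunctival epithelium under FGF10 from the periocular mesenchyme, and this growth needs heparan sulfate, a sulfated sugar chain that holds FGF to its receptor. Nasal conjunctiva gives rise to the Harderian gland.

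With 1 array for each genotype and region, no difference had a replicate check and no test was possible. Values are log2 normalized bead intensities of the brightest probe of each gene, and differences are knockout-labelled minus wild type on that scale, so a difference of 1 is 2-fold. The standard errors given come from the spread of the beads on an array and cover that measurement only. They do not cover embryos, dissection or amplification. A gene was counted as different when it was at least 2-fold apart, and the share of all genes that far apart is the background for every count. The gene lists were chosen with earlier results of these data known. A list's share therefore describes its members and cannot test whether the list stands out. Fewer cells of a type and less RNA per cell cannot be told apart in such samples.

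The knockout-labelled temporal array detected 18877 of 45281 probes and the wild-type temporal array detected 19969, within the range of 18040 to 20660 over the 6 arrays. All 6 were hybridised on the same chip according to their labels. Epithelial identity was clear on both temporal arrays. Of 16 markers of surface epithelium, 14 were detected on each, with a summed intensity of 11537 on the knockout-labelled array and 10077 on the wild-type array. Krt5, a keratin of basal epithelial cells, was at 10.51 on the knockout-labelled array and 9.69 on the wild-type array. Cdh1, the epithelial cadherin, was at 11.54 on the knockout-labelled array and 11.79 on the wild-type array, and Pax6, a transcription factor of eye ectoderm, was at 9.89 on the knockout-labelled array and 9.43 on the wild-type array. Some defining markers of neurons (Tubb3, Stmn2), leukocytes (Ptprc), endothelium (Pecam1, Cdh5), lens fibres (Cryaa), pigment cells (Tyr) and skeletal muscle (Acta1) were detected on neither array. Others were detected. Csf1r of leukocytes was at 4.62 on the knockout-labelled array and Myod1 of muscle at 4.58 on the wild-type array. Cryba1 of lens was at 4.63 on both. Over the whole lists of these cells, counts were low: 1 of 12 neuron markers on the knockout-labelled array and 2 on the wild-type array, 6 of 18 leukocyte markers against 3, 1 of 14 endothelium markers on each, 5 of 22 lens markers on each, 2 of 12 retina and pigment markers against 3, and 0 of 17 skeletal muscle markers against 4. Of 23 markers of periocular mesenchyme, 14 were detected on the knockout-labelled array and 17 on the wild-type array. Col1a1, Col3a1 and Pdgfra were detected on both. Of 11 erythroid markers, 3 and 5 were detected, with Hba-a1 on both. The part of all these cells in the differences below was not tested.

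Transcript of the targeted gene, Sox9, was equally bright on both temporal arrays by 1 probe. The brighter probe read 10.06 on the knockout-labelled array and 10.01 on the wild-type array, a difference of 0.05 with a bead standard error of 0.04. Over the nasal and dorsal arrays the same probe ran from 8.29 to 10.35. The dimmer probe read 5.84 on the knockout-labelled array and 6.26 on the wild-type array, a difference of -0.42. Whether either probe falls inside the floxed segment is unknown here, and so the probes do not check the label. For this reason the array is called knockout-labelled throughout, and every direction below rests on that label.

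The temporal arrays also differed in genes on the sex chromosomes. Xist, the RNA that silences an X chromosome, was at 8.27 on the knockout-labelled array and 9.22 on the wild-type array. Its other probes differed by -1.62, -1.23 and -1.19. Eif2s3y, a Y-linked translation factor gene, was at 6.75 on the knockout-labelled array and 4.90 on the wild-type array, and the other 4 arrays lay between 6.65 and 7.60. Kdm5d, another Y-linked gene, was at 5.48 on the knockout-labelled array and 4.34 on the wild-type array. Uty went the other way, at 4.41 on the knockout-labelled array, where it was not detected, and 4.68 on the wild-type array. The part of embryo sex in the differences below was not tested.

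In all, 10460 genes had a probe detected on at least 1 temporal array, and 1766 of them (16.9%) were at least 2-fold apart. Of these, 897 (8.58%) were higher and 869 (8.31%) were lower on the knockout-labelled array, and the median difference over all genes was -0.03. With the arrays scaled to the same median instead of quantile-normalized, that median was 0.10 and the higher genes made up 65.1% of those called, against 50.8% here. Bead error was far smaller than the threshold: 68.7% of all genes tested differed by over 1.96 bead standard errors. Genes of middle brightness were called most often. Split into 4 equal groups by brightness from dim to bright, the shares called were 5.32%, 28.3%, 25.1% and 8.80%.

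**Figure D1:**
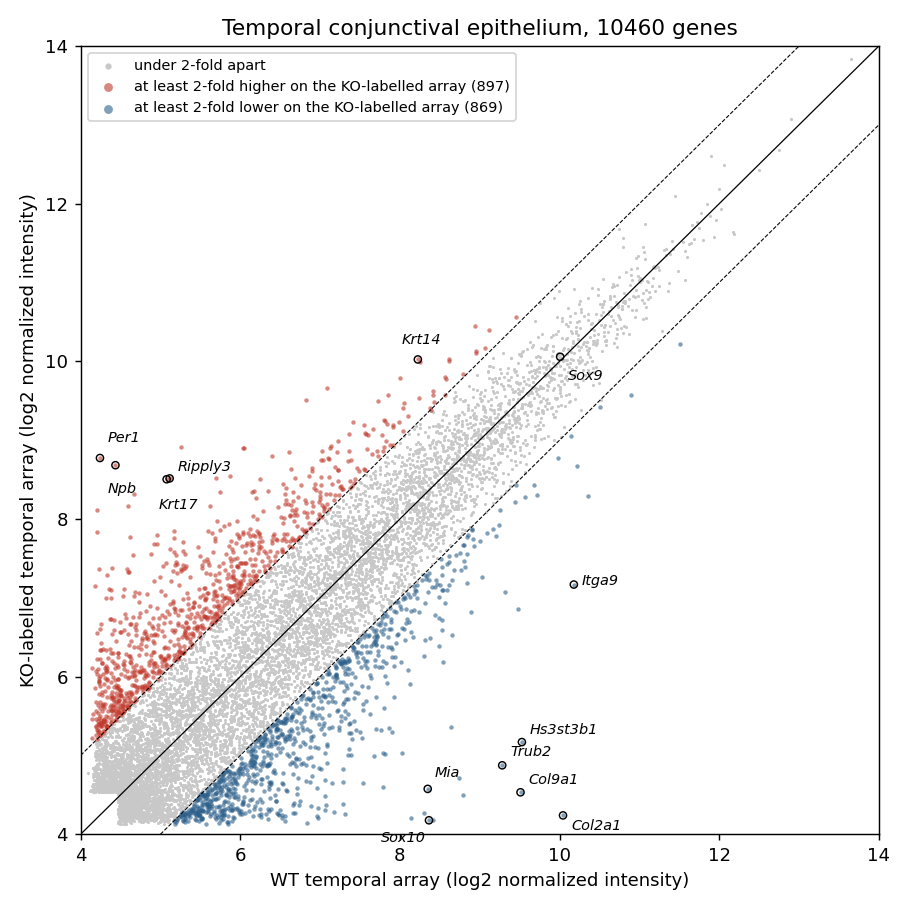
Log2 normalized intensity of 10460 genes on the knockout-labelled temporal array (vertical axis) and the wild-type temporal array (horizontal axis), with dashed lines at 2-fold. Col2a1, Col9a1, Hs3st3b1, Mia, Sox10, Trub2 and Itga9 lie far below the lower line, Per1, Npb, Krt17 and Ripply3 far above the upper line, and Sox9 lies on the diagonal.

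The genes farthest below wild type included cartilage collagens, a SoxE factor and an enzyme of heparan sulfate. Promoter sequences are shown because their genes lead the results that follow: Col9a1, which has annotated starts 17593 bases apart, the paired sulfotransferase genes Hs3st3b1 and Hs3st3a1, and Rtn1, whose detected probes were all lower. Of the 3 annotated Rtn1 starts, the window with most matches to the letters searched is printed, a choice made after the matches were counted. Each covers 250 bases before to 50 bases after a transcription start annotated by RefSeq on GRCm38.p6, read 5′ to 3′ on the gene's strand. Capitals mark the hexamers AACAAT and ACAAAG on either strand, core letters of the sequences that Sox proteins bind.
Col9a1 upstream start, chr1:24177360-24177659, plus strand: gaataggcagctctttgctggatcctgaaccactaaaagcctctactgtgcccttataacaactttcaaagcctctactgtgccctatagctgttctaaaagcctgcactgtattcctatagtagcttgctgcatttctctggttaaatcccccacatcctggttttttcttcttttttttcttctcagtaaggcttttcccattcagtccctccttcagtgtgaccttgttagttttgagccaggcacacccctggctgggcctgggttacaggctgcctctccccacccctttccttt
Col9a1 downstream start, chr1:24194953-24195252, plus strand: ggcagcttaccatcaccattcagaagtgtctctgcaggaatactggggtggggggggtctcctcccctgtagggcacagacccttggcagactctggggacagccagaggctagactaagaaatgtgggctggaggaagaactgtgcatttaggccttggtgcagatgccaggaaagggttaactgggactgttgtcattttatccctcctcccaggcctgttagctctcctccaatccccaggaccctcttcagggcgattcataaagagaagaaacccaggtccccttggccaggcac
Hs3st3b1, chr11:63922235-63922534, minus strand: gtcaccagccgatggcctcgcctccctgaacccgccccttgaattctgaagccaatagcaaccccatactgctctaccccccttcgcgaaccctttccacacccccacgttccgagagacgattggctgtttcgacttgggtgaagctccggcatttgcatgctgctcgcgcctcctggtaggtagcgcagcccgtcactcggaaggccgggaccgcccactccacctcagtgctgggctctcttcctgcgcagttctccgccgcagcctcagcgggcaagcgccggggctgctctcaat
Hs3st3a1, chr11:64435082-64435381, plus strand: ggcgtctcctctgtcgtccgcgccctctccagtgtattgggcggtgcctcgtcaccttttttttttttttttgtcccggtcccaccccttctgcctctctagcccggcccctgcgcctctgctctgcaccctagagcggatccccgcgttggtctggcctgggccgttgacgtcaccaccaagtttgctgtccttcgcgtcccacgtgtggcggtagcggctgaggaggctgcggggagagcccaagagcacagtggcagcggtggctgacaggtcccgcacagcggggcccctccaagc
Rtn1, chr12:72235697-72235996, minus strand: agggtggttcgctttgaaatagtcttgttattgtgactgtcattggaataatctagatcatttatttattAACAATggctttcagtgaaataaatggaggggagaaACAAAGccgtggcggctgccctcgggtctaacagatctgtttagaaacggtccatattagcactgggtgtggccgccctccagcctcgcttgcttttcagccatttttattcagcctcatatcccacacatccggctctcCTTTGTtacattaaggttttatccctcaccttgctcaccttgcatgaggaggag
The Col9a1, Hs3st3b1 and Hs3st3a1 windows held neither hexamer, nor did that of Mia, which is not printed. The Rtn1 window shown held 3 matches, and the other Rtn1 windows held 1 and 0. Among 32851 promoters of mouse genes, 10.7% held AACAAT and 18.7% held ACAAAG. Promoters of genes lower on the knockout-labelled array held them in 6.20% and 14.2% of 887 windows, and those of genes higher on it in 6.18% and 13.5% of 906 windows. A match describes letters only and is not a binding site.

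Collagen genes of types II and IX were bright on the wild-type temporal array and dark on the knockout-labelled one. Col2a1, the chain of type II collagen and a direct Sox9 target in cartilage, was at 4.24 on the knockout-labelled array and 10.04 on the wild-type array. It was not detected on the knockout-labelled array, so its fold is a bound, taken against the higher of its own value there and the dimmest detected probe: it was at least 45.7-fold lower. Its other probes differed by -5.47 and -5.25, so all 3 probes gave the same picture. Col9a1, a chain of type IX collagen, was at 4.53 on the knockout-labelled array and 9.51 on the wild-type array, a difference of -4.98, and the other 4 arrays lay at 4.14 to 4.36. Its value was thus high on the wild-type temporal array alone, and the brightest of its other probes differed by only -0.86. Col9a2 was at least 5.41-fold lower, at 4.23 on the knockout-labelled array and 6.96 on the wild-type array. Col9a3 was at least 4.08-fold lower, at 4.17 on the knockout-labelled array and 6.56 on the wild-type array, and its second probe differed by -2.04. Mia, a small secreted protein of cartilage matrix, was at 4.58 on the knockout-labelled array and 8.35 on the wild-type array, a difference of -3.77 that its second probe gave as -3.89.

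Of 26 genes in the cartilage and Sox9-target list, 13 were tested, 5 were lower and 1 was higher. The lower share was 38.5%, and the median difference of the list was -0.20, also with genes detected on 1 array at their bound; the filter decided its sign, since without the detection filter it was 0.03. Sox5, a partner factor of Sox9 in cartilage, was the higher member, at 6.55 on the knockout-labelled array and 5.49 on the wild-type array, and its second probe differed by 0.59. Of the 13 tested, 6 had a positive and 7 a negative difference of any size. Col11a1, a chain of type XI collagen, was at 5.09 on both arrays, and Col11a2 was detected on neither. Acan and Hapln1, at 4.76 and 4.69 on the knockout-labelled array, were not detected on the wild-type array. Comp, Matn1 and Cnmd were detected on neither. The summed intensity of the list was 536.5 on the knockout-labelled array and 2618 on the wild-type array, while the other 4 arrays ranged from 399.8 to 761.2. The wild-type temporal array therefore stood apart from the other 5. Whether cartilage or its precursors entered that cut was not tested.

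**Figure D2:**
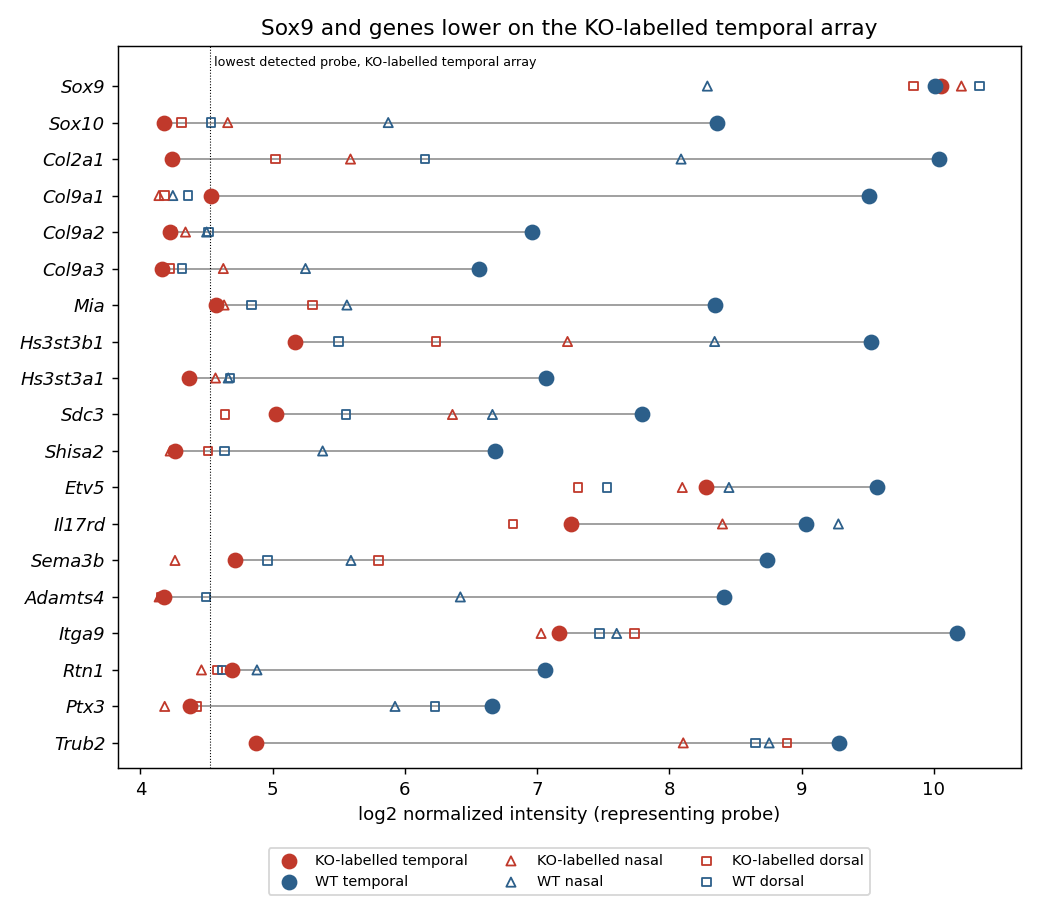
Log2 normalized intensity of Sox9 and 18 genes lower on the knockout-labelled temporal array, with filled circles for the temporal arrays, triangles for nasal and squares for dorsal, red for knockout-labelled and blue for wild type. For Col9a1, Col9a2, Mia and Rtn1 the wild-type temporal array lies far to the right of the other 5, whereas for Trub2 the knockout-labelled temporal array lies far to the left.

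Genes of the lacrimal bud were lower in several cases. Sox10, the SoxE factor that acts in glandular and neural crest cells, was at 4.18 on the knockout-labelled array and 8.36 on the wild-type array, at least 14.3-fold lower. The other 4 arrays lay between 4.31 and 5.87. Hs3st3b1, a 3-O-sulfotransferase of heparan sulfate chains, was at 5.17 on the knockout-labelled array and 9.53 on the wild-type array, a difference of -4.36. Its other probes differed by -4.33, -2.38 and -0.83. By the representing probe the other arrays ranged from 5.50 to 8.34, so the knockout-labelled temporal array was the lowest of 6 and the wild-type temporal array the highest. By the probe that differed by -2.38, the knockout-labelled temporal array was not the lowest. It read 5.05, above the knockout-labelled nasal (4.27), knockout-labelled dorsal (4.64) and wild-type dorsal (4.29) arrays. Hs3st3a1, its close relative, was at 4.37 on the knockout-labelled array and 7.07 on the wild-type array, at least 5.82-fold lower. Shisa2, which restrains FGF and Wnt receptors, was at 4.27 on the knockout-labelled array and 6.68 on the wild-type array, at least 4.44-fold lower. Of 28 gland and bud genes with a probe, 22 were tested, 7 were lower (31.8%) and 1 was higher. The list was chosen with earlier results of these data known, so this share is a description only. Most of the lower ones are counted again in lists below, so those counts are not separate from this one. Hs3st3b1 and Hs3st3a1 are also in the heparan sulfate chain list. Shisa2, Etv4 and Etv5 are also in the FGF response list, and Sox10 in the nerve glia list. The median difference was -0.24. Eya1, a transcriptional coactivator, was the higher member, at 7.40 on the knockout-labelled array and 5.88 on the wild-type array. Barx2, a homeobox factor of the lacrimal gland, was under 2-fold apart, at 11.14 on the knockout-labelled array and 10.83 on the wild-type array.

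Genes for the synthesis, trimming and precursors of heparan sulfate chains were lower more often than higher. Of 37 with a probe, 28 were tested, 7 were lower (25.0%) and 2 were higher, with a median difference of -0.37. Hs6st2, a 6-O-sulfotransferase, was at 4.91 on the knockout-labelled array and 6.78 on the wild-type array, and its second probe differed by -0.73. Extl2 and Extl3, which act on the start of the chain, differed by -1.62 and -1.43. Hs3st1, another 3-O-sulfotransferase, differed by -1.32. Sulf1, a sulfatase that trims the chains and was named after its values were seen, was also lower. It was at 5.11 on the knockout-labelled array and 6.39 on the wild-type array. Uxs1, which makes the sugar donor for the linker, was the largest in the other direction, at 7.98 on the knockout-labelled array and 5.96 on the wild-type array. Ndst2, an N-sulfotransferase, was also higher by 1.25. Among 12 heparan sulfate core proteins tested, 3 were lower (25.0%) and 1 was higher, and the median of -0.14 became 0.03 with median scaling. The lower members were the syndecans Sdc3, Sdc2 and Sdc4, with differences of -2.77, -1.63 and -1.17. Col18a1, a basement membrane collagen that carries such chains, was higher by 1.50, and its second probe by 1.31.

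Genes induced by FGF through ERK signalling were lower on the knockout-labelled array in 8 of 21 cases (38.1%), and 1 was higher. The list's median difference was -0.50, against -0.03 for all genes. Among the called members, the wild-type temporal array alone was at least 2-fold from the median of the other 4 arrays for 6. The knockout-labelled array alone was so for 1. On the knockout-labelled array Etv5 lay within the other 4 arrays (7.31 to 8.45), whereas Dusp4, at 5.48, lay below them (5.77 to 7.57). Etv5, an ETS factor induced by FGF, was at 8.28 on the knockout-labelled array and 9.57 on the wild-type array, and its second probe differed by -1.38. Il17rd, a membrane inhibitor of FGF signalling, was at 7.26 on the knockout-labelled array and 9.03 on the wild-type array, and its second probe differed by -0.84. Myc, a growth factor-induced transcription factor, was at least 3.32-fold lower, and its second probe differed by -1.48. Dusp4, an ERK phosphatase, differed by -1.84, although its second probe differed by -0.05. Etv4 was at least 2.37-fold lower. Dusp6, an ERK phosphatase named here after its values were seen, was at 10.22 on the knockout-labelled array and 11.50 on the wild-type array. Dusp7 was the higher member, by 1.43. The receptor Fgfr2 was at 10.73 on the knockout-labelled array and 10.55 on the wild-type array. Of 11 FGF ligands, receptors and binding proteins tested, 1 was lower, Fgf22 by -1.13, and 1 was higher, Fgfbp3 by 1.10, although its second probe differed by -0.72. Their median was -0.36, or -0.01 with genes detected on 1 array at their bound.

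Some markers of nerve glia and neural crest were lower beside the gland genes. Of 12 tested, 5 were lower (41.7%) and none was higher at least 2-fold. The median was -0.07, close to that of all genes, and 0.09 with median scaling. Erbb3, the neuregulin receptor of Schwann cells, was at 5.32 on the knockout-labelled array and 7.76 on the wild-type array. Fabp7, a fatty acid binding protein of glial precursors, was at 5.08 on the knockout-labelled array and 7.36 on the wild-type array. Ngfr, the low-affinity neurotrophin receptor, was at least 4.54-fold lower. Sox10 belongs to this list as well as to the gland list, and its part in each was not tested. The summed intensity of the list was 3033 on the knockout-labelled array and 3454 on the wild-type array, and most of it came from Tfap2b and Mal, which epithelium also expresses.

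Among other genes far lower, several had more than 1 probe lower. Itga9, the integrin alpha 9 chain that binds tenascin, was at 7.17 on the knockout-labelled array and 10.18 on the wild-type array, and its second probe differed by -2.73. Sema3b, a secreted guidance protein, was at 4.72 on the knockout-labelled array and 8.74 on the wild-type array, and its second probe differed by -2.84, but a further detected probe by only -0.32. Rtn1, a reticulon of the endoplasmic reticulum, was at 4.69 on the knockout-labelled array and 7.06 on the wild-type array, and its 4 detected probes differed by -1.69 to -2.78. St6gal1, which adds sialic acid to glycans, was at 8.29 on the knockout-labelled array and 10.35 on the wild-type array, and its second probe differed by -2.51. Ptx3, a secreted pentraxin, was at least 4.38-fold lower, and was also lower on the knockout-labelled arrays of the nasal region (4.18 against 5.93) and the dorsal region (4.42 against 6.23). Atp2a3, a calcium pump, Rin2, a Rab5 exchange factor, Slc30a5, a zinc transporter, and Pkdcc, a secreted kinase, were lower by all their detected probes too. For Trub2, a pseudouridine synthase, the large difference rested on 1 probe. It read 4.87 on the knockout-labelled array and 9.28 on the wild-type array, the other 4 arrays read 8.11 to 8.89, and other probes of the gene differed by -0.23 and 0.15.

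The remaining genes at the lower extreme were mixed in function. Aatk, a neuronal kinase, differed by -3.28, and Fadd, the adaptor of death receptors, by -3.19 with a second probe at -1.06. Ctps, which makes CTP, differed by -2.99, and Slc29a4, a monoamine transporter, by -2.89. The second probe of Ctps differed by -1.53, and the other detected probes of Slc29a4 by -0.90 and 0.65. Adamts4, a protease that cleaves aggrecan, was at least 14.7-fold lower, at 4.18 on the knockout-labelled array and 8.41 on the wild-type array. Rhoj, a small GTPase of endothelial cells, was at least 19.2-fold lower by 1 probe, while its second probe differed by 0.33. Noxo1, an organiser of a NADPH oxidase, was at least 12.2-fold lower, and its second probe differed by -0.22. Iqgap2, a cytoskeletal scaffold, was at least 13.7-fold lower, whereas its other probes differed by 0.31 and -0.89.

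Several genes of stratified epithelium were higher on the knockout-labelled array, while others were lower and most were under 2-fold apart. Krt17, a keratin of basal and regenerating epithelium, was at 8.50 on the knockout-labelled array and 5.08 on the wild-type array, a difference of 3.43. Krt14, the partner of Krt5, was at 10.02 on the knockout-labelled array and 8.22 on the wild-type array. For both, the wild-type temporal array was the lowest of the 6, since the other arrays lay at 6.25 to 7.58 for Krt17 and at 8.82 to 10.26 for Krt14. Krt23 went the other way and was at least 6.23-fold lower. Of 14 keratins tested, 2 were higher (14.3%, against 8.58% of all genes) and 1 was lower, and the median was 0.36. Dsc3, a desmosomal cadherin, was at 7.68 on the knockout-labelled array and 4.92 on the wild-type array, and was also higher on the knockout-labelled nasal array (6.31 against 5.20) and dorsal array (6.59 against 5.03). Esrp2, an epithelial splicing factor, was higher by 1.38 and by 1.37 with its second probe. Of 36 junction and adhesion genes, 6 were higher (16.7%, against 8.58% of all genes) and 3 were lower. Cldn7, Dsg1a and Nectin1 were higher by 1.41, 1.33 and 1.19. Cldn10 was at least 6.86-fold lower, and Cldn11 differed by -1.33. Cdh3 was higher by 1.01 with its representing probe, but its second probe differed by -1.48.

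**Figure D3:**
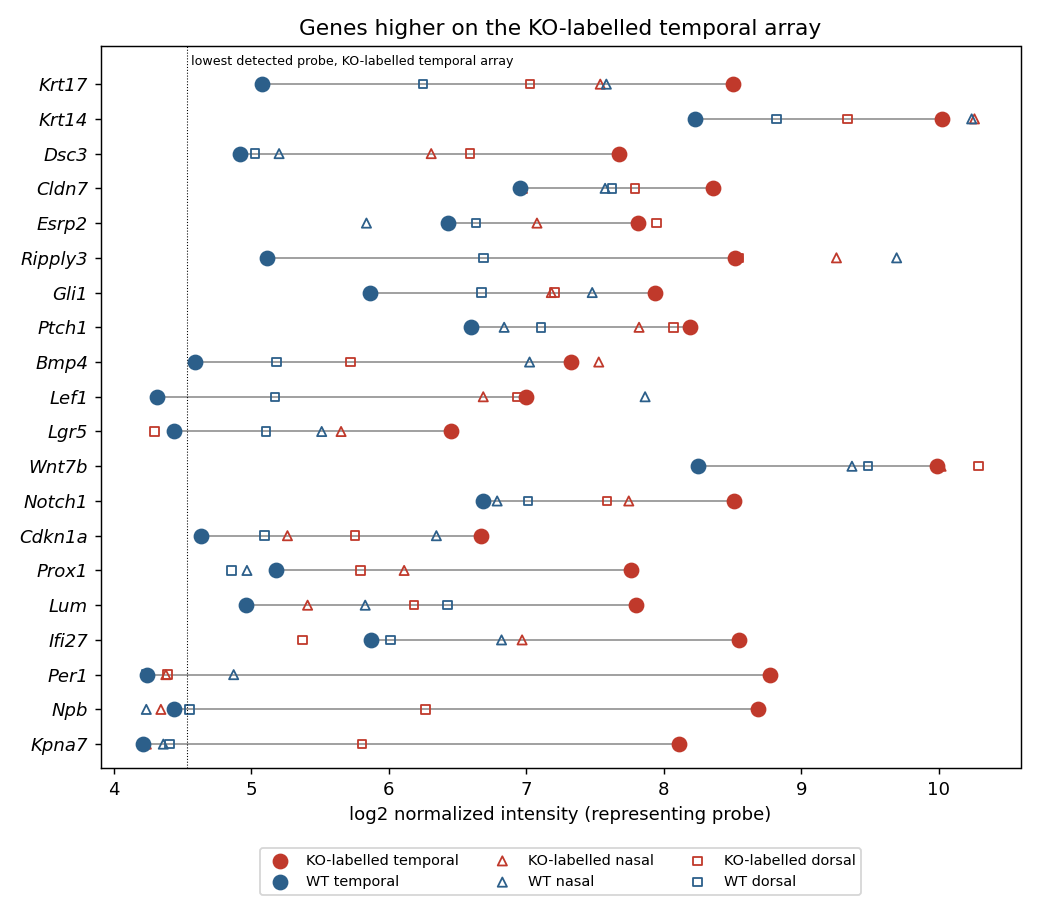
Log2 normalized intensity of 20 genes higher on the knockout-labelled temporal array, with filled circles for the temporal arrays, triangles for nasal and squares for dorsal, red for knockout-labelled and blue for wild type. For Krt17, Krt14 and Ripply3 the wild-type temporal array is the lowest of 6, whereas for Per1, Npb and Kpna7 the knockout-labelled temporal array lies far to the right of the other 5.

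Hedgehog pathway genes were higher in 4 of 10 cases (40.0%) and lower in 1, with a list median of 0.67. Gli1, a transcription factor and target of the pathway, was at 7.94 on the knockout-labelled array and 5.86 on the wild-type array. Ptch1, the receptor and also a target, was at 8.19 on the knockout-labelled array and 6.60 on the wild-type array, and its second probe differed by 1.44. Sufu, which restrains GLI factors, and Disp1, which releases the ligand, were higher by 1.53 and 1.47. Gli3, largely a repressor, differed by -1.05, and its second probe by -0.89.

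Wnt pathway members went both ways, with 9 of 36 higher (25.0%) and 4 lower (11.1%). The list median was 0.20, or 0.11 with genes detected on 1 array at their bound. Wnt7b, a ligand of surface epithelia, was at 9.99 on the knockout-labelled array and 8.25 on the wild-type array. Lef1, a nuclear mediator of the pathway, was at least 5.74-fold higher by 1 probe, but its other probes differed by 0.50, 0.00 and -0.06. Lgr5 and Lgr6, receptors for R-spondins, were at least 3.95-fold and at least 3.07-fold higher. Wnt2 and Fzd10 were higher by 1.92 and 1.67, the second Fzd10 probe by 0.26. The receptors Fzd5 and Fzd7 differed by -2.18 and -1.84, but the second Fzd5 probe differed by 0.61. Fzd2 was at least 2.35-fold lower. Nkd2, an inhibitor of the pathway, was at least 4.41-fold lower.

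Of 15 Notch pathway genes, 2 were higher (13.3%) and none was lower, against 8.58% and 8.31% of all genes, with a median of 0.21. Notch1, a receptor, was at 8.51 on the knockout-labelled array and 6.69 on the wild-type array. Maml1, a coactivator of the pathway, was higher by 1.64, whereas its second probe differed by -0.45. Among p53 targets, 6 of 23 were higher (26.1%) and 2 were lower, with a median of 0.46. Cdkn1a, the p21 inhibitor of the cell cycle, was at 6.67 on the knockout-labelled array and 4.63 on the wild-type array, and its second probe differed by 2.35. Aen, a nuclease, Fas, a death receptor, and Polk, a DNA polymerase for damaged templates, were higher by 1.69, 1.40 and 1.23. The second probes of Aen and Fas differed by -0.26 and 0.27. Bbc3, a proapoptotic target, differed by -1.30. Among 42 cell cycle and replication genes, 2 were higher and 6 were lower (14.3%), with a median of -0.22. Aurka, a mitotic kinase, and Foxm1, a factor driving mitotic genes, differed by -1.83 and -1.21.

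Other genes at the higher extreme included transcription factors and matrix genes. Ripply3, a corepressor, was at 8.51 on the knockout-labelled array and 5.11 on the wild-type array, and the other arrays lay at 6.69 to 9.69. Prox1, a homeobox factor of lens and lymphatic vessels, was at 7.76 on the knockout-labelled array and 5.18 on the wild-type array. Prox1 is also a lens marker. The summed intensity of the other 21 lens markers was 109.4 on the knockout-labelled array and 98.6 on the wild-type array. Lum, a proteoglycan of corneal and periocular stroma, was at 7.80 on the knockout-labelled array and 4.96 on the wild-type array, and its second probe differed by 1.48. The summed level of 23 markers of periocular mesenchyme was 2803 on the knockout-labelled array and 2444 on the wild-type array. Bmp4, a ligand of periocular mesenchyme and ectoderm, was higher by 2.73. Ifi27, an interferon-induced gene, was at 8.55 on the knockout-labelled array and 5.87 on the wild-type array, and its second probe differed by 3.76. Capg, an actin-capping protein, and Lpar4, a lysophospholipid receptor, were higher by 1.63 and 1.65, with second probes at 1.73 and 1.91. The 1600014C10Rik, Farp2, Diras2, Ap5b1, Acbd4 and Mettl17 genes were also higher by all their detected probes.

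The largest higher values among genes detected on both arrays were those of Fbxo2, an F-box protein that recognises glycoproteins, and Trim68, a ubiquitin ligase. Fbxo2 was at 8.31 on the knockout-labelled array and 4.66 on the wild-type array, and Trim68 was at 8.91 on the knockout-labelled array and 5.26 on the wild-type array. Il1rapl2, Rab7b, Flot1, Plod3 and Klhdc10 were higher by 3.57, 3.15, 2.88, 2.86 and 2.86. Each of these 7 had no other probe detected on a temporal array. A second Rab7b probe, detected on 3 of the other arrays, differed by 0.08. Among genes detected on the knockout-labelled array alone, Per1, a circadian repressor, had the largest bound, at least 19.7-fold higher, at 8.77 on the knockout-labelled array and 4.24 on the wild-type array. Its other probes were detected on neither temporal array, and the other 4 arrays read 4.23 to 4.87 with the bright probe. Npb, a neuropeptide gene, and Kpna7, an importin gene, were at least 18.5-fold and at least 12.4-fold higher. Tafa5, Ccnjl and Tnni2 followed at 10.3-fold, 7.49-fold and 7.40-fold or more.

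**Figure D4:**
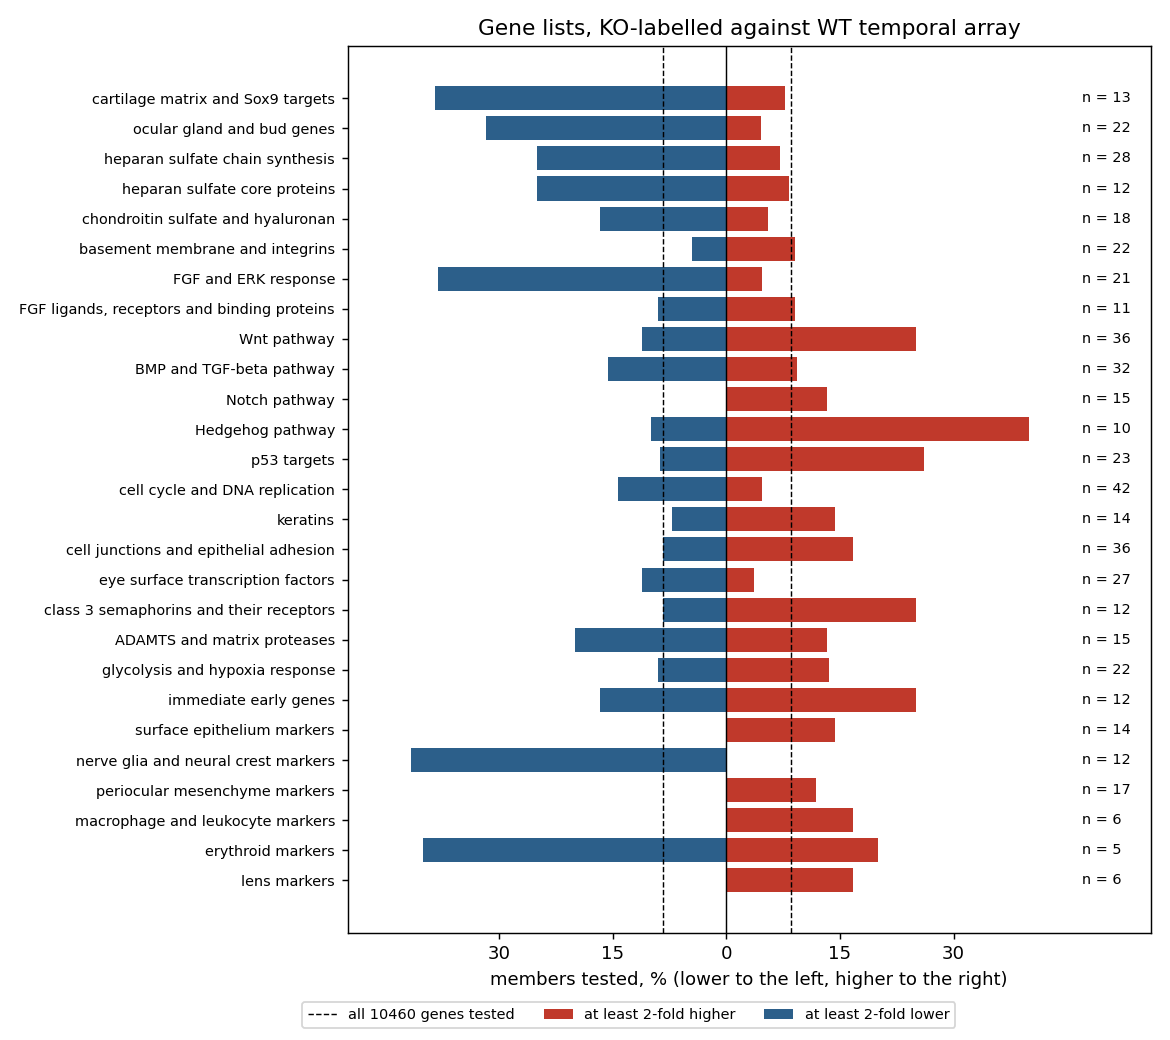
Share of tested members of each gene list that was at least 2-fold higher (to the right) or lower (to the left) on the knockout-labelled temporal array, with dashed lines at the shares over all 10460 genes (8.58% higher, 8.31% lower). Lists with at least 5 members tested are drawn, and the lower shares of the nerve glia, erythroid, cartilage, FGF response and ocular gland lists and the higher share of the Hedgehog list extend farthest past the lines. The lists were chosen with earlier results of these data known, so the shares are descriptions only.

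Over the same 10460 genes, 9.83% were at least 2-fold higher and 9.96% lower on the knockout-labelled nasal array against wild type, and 2.93% higher and 3.34% lower on the knockout-labelled dorsal array. Of the 869 genes lower in temporal, 19.3% were also at least 2-fold lower in nasal and 7.02% in dorsal. Of the 897 higher genes, 13.6% were also higher in nasal and 6.80% in dorsal. Shared by all 3 regions were 22 of the lower genes (2.53%) and 7 of the higher genes (0.78%). The share of all genes that far apart in both nasal and dorsal was not counted, so whether these overlaps are large or small was not tested. Of the named genes, Col2a1, Ptx3, Noxo1, Klf7, Nfix and Cldn11 were at least 2-fold lower in all 3 regions. Acbd4, Dsc3 and Esrp2 were at least 2-fold higher in all 3. Col2a1 read 5.59 on the knockout-labelled and 8.09 on the wild-type nasal array, and 5.02 on the knockout-labelled and 6.15 on the wild-type dorsal array. The design text reads as if the regions came from the same embryos, in which case they are not independent of each other.

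The other 4 arrays show on which side each gene was unusual, taking 2-fold from their median as the limit. Of 869 lower genes, the knockout-labelled temporal array alone was past it for 313 (36.0%), the wild-type temporal array alone for 164 (18.9%), and neither for 376 (43.3%). Of 897 higher genes, the knockout-labelled array alone was past it for 461 (51.4%) and the wild-type array alone for 105 (11.7%). Among the 5 lower cartilage genes, the wild-type array alone was past it for 4 (Col9a1, Col9a2, Col9a3 and Mia), and both arrays were for Col2a1. For those 4, the medians of the other arrays were 4.21, 4.42, 4.47 and 5.07, while the lowest normalized value on an array was 4.09, so the knockout-labelled array could not have been past the limit. Such a floor limits the counts too. Of the lower genes, 702 left room for the knockout-labelled array to be past the limit below, and there it alone was past for 313 (44.6%) and the wild-type array alone for 72 (10.3%). Of the higher genes, 626 left such room for the wild-type array, with 256 (40.9%) past on the knockout-labelled array alone and 105 (16.8%) on the wild-type array alone. Among called gland and bud genes, the wild-type array alone was past the limit for 5, the knockout-labelled array alone for 1 and both for 1. For called heparan sulfate chain genes these counts were 2, 4 and 1.

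Probes of 1 gene agreed only in part. Of 162 called genes under the naming rule, 81 had another detected probe, which was at least 2-fold the same way for 43, of the same sign for 68 and of opposite sign for 13. Across 4632 genes with another detected probe, the differences by both probes had a correlation of 0.32, a description across genes that share the same arrays. Of 799 genes called by the representing probe, the brightest other probe was at least 2-fold in the same direction for 185 (23.2%), of the same sign for 540 (67.6%) and at least 2-fold in the opposite direction for 31 (3.88%). Among genes not called, 12.5% had another probe at least 2-fold apart in either direction. In 106 genes all detected probes, at least 2 of them, differed at least 2-fold in the same direction, 56 lower and 50 higher. Col2a1, Mia, Itga9, Rtn1, St6gal1, Ifi27, Cdkn1a and Capg were among them, whereas Trub2, Rhoj and Noxo1 were not.

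**Figure D5:**
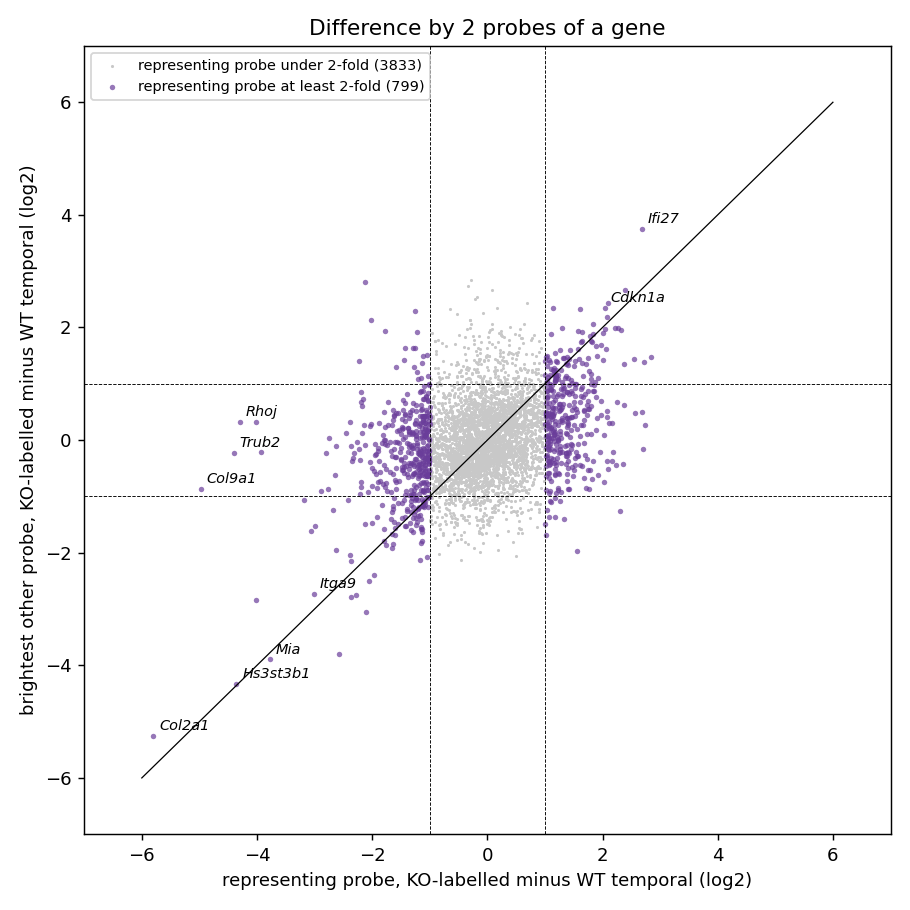
Difference between the knockout-labelled and wild-type temporal arrays by the representing probe (horizontal axis, log2) and by the brightest other detected probe of the same gene (vertical axis, log2), with dashed lines at 2-fold. Col2a1, Hs3st3b1, Mia, Itga9 and Ifi27 lie near or beyond the diagonal, and Trub2, Rhoj and Col9a1 lie within 2-fold by the other probe.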

How the data were processed

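Gene expression was measured on Illumina bead arrays, 1 for each genotype and region. The deposited bead intensities, their bead standard errors and bead numbers, and the detection p-values were used as the authors' files give them, and GenomeStudio is named per the submitters' processing notes. The authors' own processed intensity table, made by an unknown normalization, served as an alternative; its values rank each array's probes as the deposited intensities do. Blank probe names marked 1315 entries, 1210 of them with values, and these were left out.

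Here, background was corrected with normexp (limma's nec, negative controls inferred through detection p-values, offset 16), arrays were quantile-normalized over all 6 with limma 3.58.1 in R 4.3.3, and log2 was taken of these deposited values so treated. The code was tested on simulated data. A probe was kept when its detection p was under 0.05 on 2 of 6 arrays, and the brightest probe represented its gene when detected on at least 1 temporal array. Of 45281 probes, 34885 had 1 gene symbol, 18 had several and 10378 had none. Of these symbols, 34807 were matched to RefSeq through Entrez numbers and 78 were kept as the annotation gave them. Of the listed genes, 53 had no analysed probe. The number of arrays limits the precision.

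Named are Sox9, the 10 largest differences in each direction among genes detected on both temporal arrays, the 10 largest in each direction among genes whose detected probes all differed at least 2-fold the same way, the 6 largest bounds in each direction, and the members of 31 gene lists at least 2-fold apart, up to 6 in each direction. Some further list members, such as Barx2, Fgfr2, Col11a1, Dusp6 and Sulf1, are named outside this rule. Members and lists were chosen with earlier results of these data known. The alternatives tried were 8 settings of background, offset, scaling, filter, probe summary and source of values.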

Additional observations from a re-analysis of the deposited data

Results flagged for a closer look

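For the genes below, the knockout-labelled temporal array differed from its wild-type array at least 2-fold in a direction opposite to that in the nasal or dorsal region. Each region has 1 array a side, and these differences between regions were not tested. They are the cases among the named genes, taken by the representing probe alone. Of all 869 genes lower in temporal, 95 (10.9%) were at least 2-fold higher in nasal, against 9.83% of all genes tested. Of all 897 higher in temporal, 120 (13.4%) were lower in nasal, against 9.96%. In dorsal, 39 of the lower genes (4.49%) were higher, against 2.93%, and 35 of the higher genes (3.90%) were lower, against 3.34%. Higher in temporal and lower in nasal conjunctiva were Trim68 (3.64 in temporal, -1.21 in nasal), Tnni2 (3.13, -1.62), Plod3 (2.86, -1.56), Lef1 (2.68, -1.18), Cdkn1a (2.04, -1.08), Laptm5 (1.48, -1.93), Sesn2 (1.16, -1.70), Adamts1 (1.02, -1.13) and Cdh3 (1.01, -1.05). Wnt2 was higher in temporal by 1.92 and lower in dorsal, with -1.17. Other probes did not always repeat the reversal. The second Cdkn1a probe was higher in nasal too, at 5.76 on the knockout-labelled array and 4.84 on the wild-type array. A further Lef1 probe was lower there, at 4.34 on the knockout-labelled array and 6.43 on the wild-type array.

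Lower in temporal and higher in nasal conjunctiva were Ctps (-2.99 in temporal, 1.33 in nasal), Slc29a4 (-2.89, 1.22), Krt23 (-2.89, 1.43), Erbb3 (-2.44, 2.21), Nkd2 (-2.27, 1.33), Tgfbr3 (-2.21, 1.66), Mbp (-1.07, 1.37) and Cldn3 (-1.04, 1.15). The other detected Slc29a4 probes were lower on the knockout-labelled nasal array, at 4.26 against 5.10 and 4.24 against 4.98. Of the other Ctps probes, 1 was higher there (6.95 against 5.19) and 1 was level (6.43 against 6.42). Ankrd37, a hypoxia-induced gene, was lower in temporal with -1.76 and higher in nasal by 1.68 and in dorsal by 2.27. Bbc3 was -1.30 in temporal and 2.12 in dorsal, and Mybl2 was -1.62 in temporal and 1.34 in dorsal.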

How the results depend on the processing

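With 1 array a side there was no test to lose, and 1766 genes at least 2-fold apart is a count of sizes. It was 389 without background correction, 643 with an offset of 50 and 1174 with detection p under 0.01 on both temporal arrays (7518 genes tested). With the authors' processed values it was 1826. The share of second probes at least 2-fold in the same direction was 13.2% without background correction and 14.9% with the offset of 50. With median scaling the median difference was 0.10 and the higher share of called genes was 65.1%, against 50.8%; that share was 57.1% without background correction, 55.8% with the offset of 50 and 55.6% with the stricter detection. Of 162 named genes called, 86 were still called without background correction, 109 with the offset of 50, 154 with median scaling and 157 with the authors' values. Signs turned for called genes and for list medians at least 0.1 from 0 as follows: the heparan sulfate core protein median was 0.0267 with median scaling; without a detection filter it was 0.0784, the cartilage median 0.032, the endothelium median -0.0039 and the retina and pigment median 0.0666. With detection p under 0.01, the medians were 0.37 for cartilage, 0.0503 for ocular gland, 0.0875 for heparan sulfate core proteins, 0.19 for FGF ligands, 0.15 for ADAMTS and matrix proteases, 0.54 for erythroid markers and 0.18 for retina and pigment markers, and Iqgap2 was 0.31 and Id4 0.075. Medians nearer to 0 turned as well, among them that of nerve glia markers, at 0.0877 with median scaling. With the mean of probes, Cdk1 was -0.15, Cdh3 -0.35 and Nfic 0.0231. The stricter detection tests fewer genes by construction and removes those dark on 1 array; the other causes were not tested. No paired analysis was possible because each genotype had 1 temporal array.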

Other observations

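Further gene lists follow, to be read against the shares of all genes (8.58% higher and 8.31% lower). Of 22 basement membrane and integrin genes, 2 were higher and 1 was lower. Col17a1, a hemidesmosome collagen, was higher by 1.20, its second probe by 0.77, and Lama1, a laminin chain, differed by -1.46. Of 18 chondroitin sulfate and hyaluronan genes, 1 was higher, the proteoglycan Bgn by 1.58, and 3 were lower, among them the hyaluronidase Hyal2 with -1.66. Of 32 BMP and TGF-beta genes, 3 were higher and 5 were lower. Tgfbr3, a coreceptor, was at least 3.84-fold lower, although its second probe differed by -0.36, and Id2, a target of BMP, differed by -1.33 with a second probe at -1.08. Of 27 transcription factors of the eye surface, Prox1 was higher and 3 were lower. Klf7 differed by -2.20, at 5.60 on the knockout-labelled array and 7.81 on the wild-type array, and Nfix by -1.03, while their second probes differed by -0.74 and -0.35.

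Of 12 class 3 semaphorin genes and receptors, 3 were higher (25.0%) and 1 was lower. Sema3c and Sema3a, ligands that guide axons and vessels, were higher by 1.57 and 1.41, beside the lower Sema3b. Of 15 ADAMTS and matrix proteases, 2 were higher and 3 were lower (20.0%). Adamts18 was at 6.39 on the knockout-labelled array and 8.49 on the wild-type array, with a second probe at -3.04, and Mmp2, a gelatinase, differed by -2.02. Of 22 glycolysis and hypoxia genes, 3 were higher and 2 were lower. Slc2a3, a glucose transporter, was higher by 1.52, and Pgk1 differed by -1.64 although its second probe differed by 0.53. Of 12 immediate early genes, 3 were higher (25.0%) and 2 were lower (16.7%), with Jun higher by 1.39 and Fosl2 at -1.59, its second probe at 0.48.

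Few markers of other cells were tested. Of 6 macrophage and leukocyte markers, Laptm5 was higher, and the summed level of the list was 168.8 on the knockout-labelled array and 79.3 on the wild-type array. Of 5 erythroid markers, Alas2 was higher (20.0%) and Hbb-y and Hbb-b2 were lower (40.0%). Of 17 markers of mesenchyme, Lum and Col5a1 were higher, and of 3 markers of retina and pigment cells, Mitf was higher by 1.29. Of 6 lens markers, Prox1 was higher. The 1 neuron marker, the 1 endothelium marker and the 3 skeletal muscle markers tested were all under 2-fold apart. Of 14 surface epithelium markers tested, 2 were higher, Krt14 and Cldn7, and none was lower.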
